A study of Mus musculus with 6 samples.

Results

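The collagen chain genes were taken as every row of the deposited table whose gene name has the form of a collagen alpha chain (Col, a type number, a, a chain number). The rule found 39 of 19353 genes. Of these, 27 had a mean of at least 10 counts over the 6 libraries, the limit set for reporting a fold change, and the same 27 passed the filter on low counts and were tested. By textbook class, 11 members encode chains of fibrillar collagens, 9 of network collagens, 6 of FACIT collagens (fibril-associated collagens with interrupted helices), 4 of beaded-filament collagens and 4 of transmembrane collagens. The other 5 lie outside these classes. The table used held no row for Col6a5, Col6a6, Col9a1, Col19a1 or Col22a1, which were not analysed here.

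The libraries came from wild-type mouse bone marrow mesenchymal stem cells, stromal cells able to form bone, fat and cartilage cells, that had been purified from primary marrow. Both groups were kept in an osteogenic medium that held dexamethasone (100 nM), β-glycerophosphate (10 mM), ascorbic acid (50 µM) and fetal bovine serum (10%). The 3 MCH samples also received melanin-concentrating hormone, a neuropeptide that the labels call melanin concentration hormone, at 0.5 µM; the 3 Control samples had none. The titles place sampling on day 9 of induction, while the design text of the series places it on day 8. The sources used here give no age, sex or strain of the mice. Nor does any label tie the replicates to separate mice or cultures. The spread behind each p-value is that between these samples and may be technical.

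Collagens are the main structural proteins of the extracellular matrix. Their chains carry short repeats that each start with glycine, and the chains wind around each other into rope-like helices. Fibrillar collagens pack into the banded fibres that osteoblasts lay down and later mineralise. Network collagens form the sheets of basement membranes, FACIT collagens sit on fibre surfaces, beaded filaments of type VI collagen surround cells, and transmembrane collagens stay anchored in the cell membrane. Ascorbic acid is the cofactor of the enzymes that hydroxylate collagen chains and is part of the medium in both groups.

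Each library held 16521980 to 18803949 counts. The 3 Control columns do not carry the word Control and were assigned because they lack MCH in their names. The 6 stromal markers were detected and summed to 170.2 to 267 CPM (TMM-scaled counts-per-million values) with MCH against 296 to 322 CPM in Control. Of the osteoblast markers, Spp1 and Alpl were measured while Sp7 had 3 to 4 counts per library and Bglap 0 to 3. The 4 leukocyte genes summed to 7.39 to 9.28 CPM with MCH and 2.64 to 3.56 CPM in Control. Most of that sum was Cd3e, with 125 to 153 counts against 39 to 61 (1.46 ± 0.17, adjusted p = 0.00346), while the pan-leukocyte gene Ptprc had 0 to 2 counts. The 7 macrophage genes summed to 7.16 to 27.2 CPM with MCH and 6.15 to 11.2 CPM in Control, with the highest sum in MCH replicate 3, and the 4 epithelial genes summed to 0.621 to 0.997 and 0.799 to 9.57 CPM, with the highest sum in Control replicate 2, where Krt5 had 82 counts and Krt14 had 94. On the first principal component over all genes, MCH replicate 1 lay at -10.9, MCH replicates 2 and 3 at -32.3 and -24.8, and the Control libraries at 18.9 to 25.5.

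Collagen messages made up less of the transcriptome with MCH. The 39 genes together took 1.39%, 1.19% and 1.25% of all counts in MCH replicates 1, 2 and 3 and 1.74%, 1.85% and 1.93% in Control replicates 1, 2 and 3. The groups did not overlap, and the means were 1.28 ± 0.10% and 1.84 ± 0.0961% (SD, n = 3), a difference of -0.56 percentage points (two-sided exact permutation test, p = 0.1, the smallest value that 3 against 3 allows). Without Col1a1, Col1a2 and Col3a1 the shares were 0.360 ± 0.0313% and 0.473 ± 0.0280%. Some marker sums moved with the share and others did not, and their part in it was not tested. Of the stromal genes 2 of 6 tested fell. Cd44 spread from 60.4 to 162 CPM with MCH (adjusted p = 0.675), and Vcam1 lay higher but did not pass (0.48 ± 0.14, adjusted p = 0.0745). Of the osteoblast genes 2 of 3 tested fell (Spp1 and Alpl). The 5 osteoblast genes summed to 551 to 574 CPM with MCH and to 1128 to 1165 CPM in Control. Both tested chondrocyte genes fell, Acan by 0.69 ± 0.15 (adjusted p = 0.0346) and Sox9 by 0.39 ± 0.08 (adjusted p = 0.0307), and the 3 genes of that list summed to 30.6 to 35.7 CPM with MCH against 45.1 to 46.7 CPM in Control. The 4 adipocyte genes summed to 45.4 to 61.2 CPM against 66.3 to 74.8 CPM, with 0 of 2 tested genes called. The leukocyte sum was higher with MCH, as was the smooth muscle sum (1687 to 1871 CPM against 1408 to 1551 CPM). The macrophage, endothelial and epithelial sums overlapped between the groups. In bulk RNA, fewer cells that make collagen and less collagen RNA per cell cannot be told apart.

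Of the 27 tested members, 12 fell with MCH and 1 rose (edgeR, quasi-likelihood; called at a Benjamini-Hochberg adjusted p under 0.05 over all genes). Of all 13662 genes tested, 5.4% fell and 3.64% rose, 9.04% in either direction. The median log2 fold change (MCH minus Control) was -0.39 over the tested members and 0.0021 over all tested genes. In 17 of the 27 every MCH library lay below every Control library, and in 2 every MCH library lay above; the shares over all tested genes were 16.6% and 16.1%. The number of members that fell was 14 without MCH replicate 1, 7 without MCH replicate 2, 4 without MCH replicate 3, 11 without Control replicate 1, and 7 without Control replicate 2 or 3. The share of all tested genes that fell moved with it, from 1.84% without MCH replicate 3 to 6.24% without MCH replicate 1. Tested members had longer and more GC-rich transcripts than other genes (median exon length 7464 against 4250.5 bases over all tested genes, median GC content 56.1% against 49.7%). With the trend on both removed, 9 members fell and 2 rose, with a median of -0.22, while over all genes 694 fell and 1008 rose in place of 738 and 497. By the q-values in the authors' deposited table, 8 members are under 0.05, all of them among the 12, and none of the 39 carries a mark of UP or DOWN. How many of all genes are under 0.05 by those q-values was not counted, so these 8 have no share to stand beside.

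**Figure D1:**
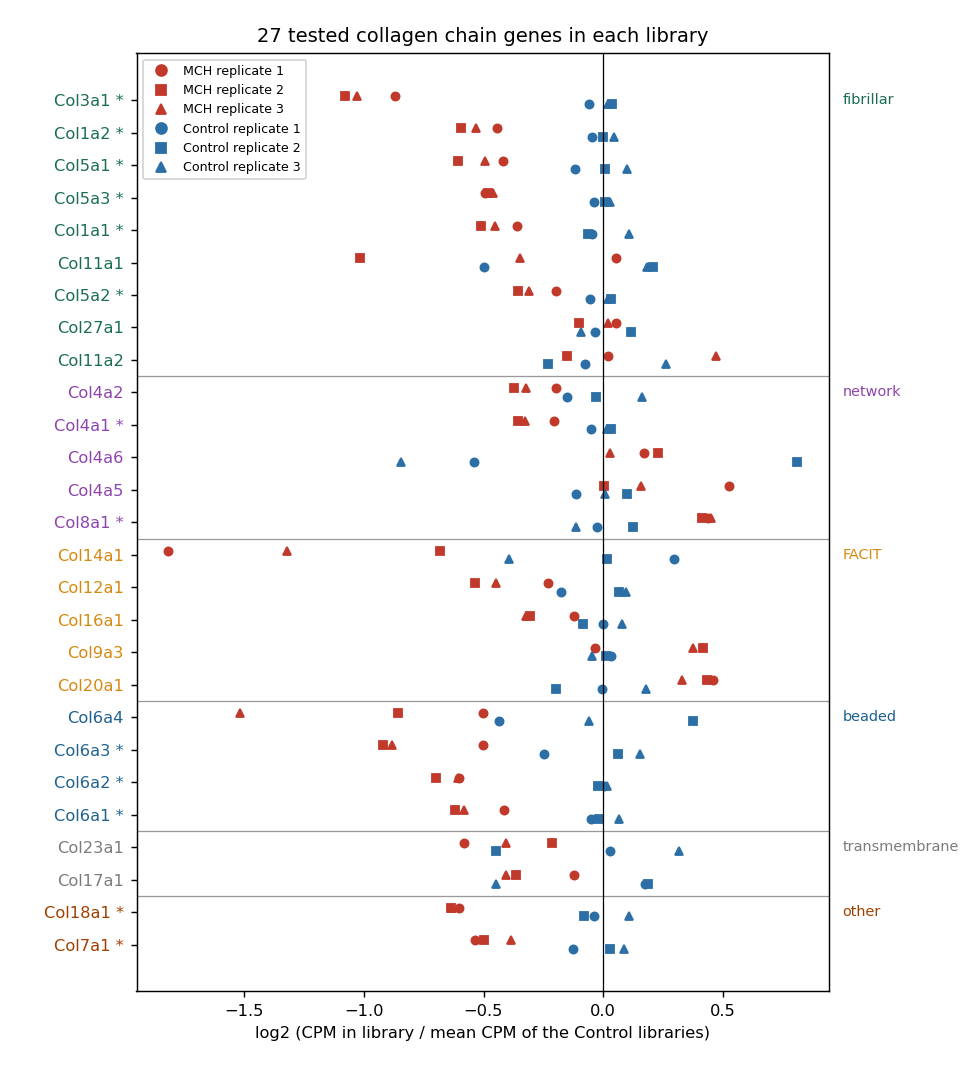
Each row is 1 of the 27 tested collagen chain genes, grouped by class, and each point is 1 library, placed by the log2 ratio of its CPM to the mean of the 3 Control libraries. An asterisk marks an adjusted p under 0.05; the 12 members that fell have all red MCH points left of the blue Control points, and Col8a1 has them to the right.

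Among the fibrillar collagens 6 of 9 tested chains fell and none rose. The largest fall was in Col3a1, the single chain gene of type III collagen, a fibre of soft and healing tissues that is often found with type I (ENSMUSG00000026043, GRCm38 chr1:45311538-45349706, plus strand). It stood at 1372, 1189 and 1232 CPM in MCH replicates 1, 2 and 3 and at 2409, 2576 and 2545 CPM in Control replicates 1, 2 and 3. The highest MCH library thus lay far below the lowest Control library. The log2 fold change was -0.99 ± 0.08 (SE; adjusted p = 0.000741), a change of -49.6%, and leaving out any 1 of the 6 libraries kept the call (highest adjusted p = 0.00917). Removing the length and GC trend also kept the call of Col3a1, with a log2 fold change of -0.82. In the authors' deposited table its q-value is 1.57e-10.

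The bases before the start of Col3a1 are shown because this gene fell most among the called members, and those before the start of Col8a1 because it was the 1 member called higher. Both are the 250 bases upstream of the annotated start, read 5′ to 3′ on the gene's strand from RefSeq (GRCm38.p6), and neither window overlaps an annotated exon. Capitals mark matches on either strand to 4 motifs: TATAAA (bound by TATA-binding protein), CCAAT (by NF-Y), TGANTCA (by AP-1) and TGTGGT (by RUNX factors). They run over chr1:45311288-45311537 on the plus strand for Col3a1 and chr16:57754738-57754987 on the minus strand for Col8a1.
Col3a1: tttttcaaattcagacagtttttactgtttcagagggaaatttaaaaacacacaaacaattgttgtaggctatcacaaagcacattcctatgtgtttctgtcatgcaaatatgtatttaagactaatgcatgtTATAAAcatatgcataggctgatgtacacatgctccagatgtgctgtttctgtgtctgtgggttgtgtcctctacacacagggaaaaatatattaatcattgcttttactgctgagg
Col8a1: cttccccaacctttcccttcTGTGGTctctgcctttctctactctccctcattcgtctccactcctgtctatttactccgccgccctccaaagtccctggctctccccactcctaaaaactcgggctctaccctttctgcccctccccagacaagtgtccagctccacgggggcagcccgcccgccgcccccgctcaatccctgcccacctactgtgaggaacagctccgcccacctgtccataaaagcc
Counting back from the base before the start as -1, the Col3a1 window held TATAAA with its first base at -117, and the Col8a1 window held TGTGGT at -230. The windows differed in base composition, with 35.2% G and C before Col3a1 and 60.8% before Col8a1. The median over all 32851 windows in the table was 52.4%. The Col3a1 window had the lowest value of the 33 windows that belong to 31 members.

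Type I collagen, the main fibre of bone, is built from the chains of Col1a1 and Col1a2, and both fell. Col1a1 (ENSMUSG00000001506, chr11:94936224-94953042) stood at 4025, 3632 and 3783 CPM with MCH and at 5001, 4945 and 5569 CPM in Control. Its log2 fold change was -0.44 ± 0.08 (adjusted p = 0.0197). Col1a2 (ENSMUSG00000029661, chr6:4504814-4541544) stood at 4348, 3916 and 4093 CPM with MCH and at 5727, 5908 and 6101 CPM in Control. Its log2 fold change was -0.52 ± 0.08 (adjusted p = 0.00807). The groups did not overlap for either gene. Leaving out replicate 2 or 3 of either group ended the Col1a1 call (highest adjusted p = 0.0976), and leaving out MCH replicate 3 ended that of Col1a2 (adjusted p = 0.0560). Removing the length and GC trend kept both calls but moved the log2 fold changes to -0.27 for Col1a1 and -0.30 for Col1a2.

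Type V collagen co-assembles with type I and limits the width of its fibres, and all 3 of its chain genes fell. Col5a1 stood at 363, 319 and 344 CPM with MCH and at 448, 488 and 519.8 CPM in Control, a log2 fold change of -0.50 ± 0.08 (adjusted p = 0.0108). Col5a2 changed least among the called members, from 1178, 1252 and 1242 CPM in Control to 1068, 958 and 987 CPM with MCH (-0.29 ± 0.07, adjusted p = 0.0453). Col5a3 had narrow groups, with 39.5, 39.8 and 40.4 CPM under MCH and 54.1, 55.9 and 56.8 CPM in Control (-0.48 ± 0.07, adjusted p = 0.00666). Its call was kept whichever library was left out. That of Col5a1 ended without MCH replicate 3 (adjusted p = 0.0567), and that of Col5a2 was kept only without MCH replicate 1 (highest adjusted p = 0.177) and was lost once the length and GC trend was removed (-0.14, adjusted p = 0.0786). That removal moved Col5a1 to -0.31 and Col5a3 to -0.30, both still called.

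The remaining fibrillar genes, of which several are best known from cartilage, did not pass the test or were not tested. Col11a1 and Col11a2 encode type XI chains, which form the core of cartilage fibres. The libraries spread widely in Col11a1, with 40.5, 19.3 and 30.7 CPM under MCH and 27.7, 45.1 and 44.3 CPM in Control (-0.37 ± 0.33, adjusted p = 0.537), and the groups overlapped. Col11a2 had 142 to 220 counts per library (0.14 ± 0.20) and Col27a1 had 529 to 691 (-0.0064 ± 0.0882). Col2a1, the main fibre gene of cartilage, had 1 to 11 counts and Col24a1 had 0 to 8, both too few to test.

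Type VI collagen forms beaded filaments around cells from the products of Col6a1, Col6a2 and a further chain such as that of Col6a3. Here 3 of 4 members fell, and in all 4 the MCH libraries lay below the Control libraries. Col6a2 (ENSMUSG00000020241, chr10:76595762-76623630) stood at 276, 259 and 276 CPM with MCH and at 420.2, 413 and 425 CPM in Control. Its log2 fold change was -0.63 ± 0.06 (adjusted p = 0.00109), kept whichever library was left out (highest adjusted p = 0.0121). Its neighbour Col6a1 (ENSMUSG00000001119, chr10:76708792-76726168) stood at 719, 625 and 642 CPM with MCH and at 927, 948 and 1004 CPM in Control (-0.54 ± 0.08, adjusted p = 0.00746). Leaving out MCH replicate 3 ended the Col6a1 call (adjusted p = 0.0512). Removing the length and GC trend kept the calls of Col6a1 and Col6a2 but moved them to -0.44 and -0.46.

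Col6a3 was much rarer, at 40.4, 30.2 and 31.0 CPM with MCH and 48.2, 59.6 and 63.7 CPM in Control (-0.75 ± 0.15, adjusted p = 0.0235). Its MCH replicate 1 and Control replicate 1 lay closest to each other, and of the fits with 1 library left out the call was kept only without MCH replicate 1 or Control replicate 1 (highest adjusted p = 0.0959). With the length and GC trend removed Col6a3 stood at -0.54 and was still called. Col6a4, which encodes a further alpha chain, had 8 to 33 counts and did not pass (-0.90 ± 0.37, adjusted p = 0.162).

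Among network collagens 1 of 5 tested members was called lower and 1 higher, beside 5.4% and 3.64% of all genes tested. Counts this small do not describe the class. Col4a1 and Col4a2 encode the chains of the common type IV collagen of basement membranes. Col4a1 stood at 190.5, 171 and 175 CPM with MCH and at 212, 225 and 222 CPM in Control (-0.29 ± 0.06, adjusted p = 0.0292). Col4a2 stood at 178, 157 and 163 CPM with MCH and at 184, 199 and 228 CPM in Control. Its log2 fold change was -0.30 ± 0.09 and it did not pass (adjusted p = 0.0845), so the test called 1 of these genes although their fitted changes were nearly equal. The Col4a1 call was kept only without MCH replicate 1 (highest adjusted p = 0.13) and was lost once the length and GC trend was removed (-0.12, adjusted p = 0.165). Col4a2 then stood at -0.12 as well.

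Col4a1 and Col4a2 lie head to head on chromosome 8, and their annotated 5′ ends share 22 bases (chr8:11312805-11312826, within the first exon of both). They are printed on the plus strand, the strand of Col4a2, to show how close the starts are.
Col4a1 and Col4a2 shared ends: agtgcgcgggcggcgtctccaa
The strand setting of the counting is not given in the sources used here, so reads within these bases cannot be assigned to either gene.

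Col8a1 was the 1 member that rose. It encodes a short-chain network collagen of vessel walls and of the membrane beneath the corneal endothelium (ENSMUSG00000068196, chr16:57624258-57754737, minus strand). It stood at 56.3, 55.5 and 56.9 CPM in MCH replicates 1, 2 and 3 and at 40.9, 45.4 and 38.5 CPM in Control replicates 1, 2 and 3. The MCH libraries lay close together and above every Control library. The log2 fold change was 0.44 ± 0.08 (adjusted p = 0.0198), and of the fits with 1 library left out the call was kept only without MCH replicate 1 or Control replicate 2, with adjusted p up to 0.0847 otherwise. With the length and GC trend removed Col8a1 stood at 0.53 and was still called. The 4 endothelial markers summed to 2.48 to 4.93 CPM with MCH and 3.20 to 4.24 CPM in Control, and 0 of the 2 tested passed. Of the smooth muscle genes, Tagln rose by 0.35 ± 0.08 (adjusted p = 0.0298), the other 3 did not pass, and the summed level of the 4 was 1687 to 1871 CPM with MCH and 1408 to 1551 CPM in Control; the part of such cells in the Col8a1 result was not tested. Col4a5, a basement membrane chain, had 477 to 780 counts and did not pass (0.25 ± 0.14, adjusted p = 0.301); its value was 0.081 without MCH replicate 1 and up to 0.35 without another library.

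No FACIT gene passed the test. In 3 of the 5 tested the MCH libraries lay below all Control libraries and in 1 above, beside 16.6% and 16.1% of all tested genes; the latter count is near that share. Col12a1, whose product binds the surface of type I fibres, stood at 434, 352 and 374 CPM with MCH and at 451, 534 and 545 CPM in Control (-0.40 ± 0.10, adjusted p = 0.0530). Col16a1 stood at 270.3, 238 and 235 CPM with MCH and at 294, 277 and 310.1 CPM in Control (-0.25 ± 0.08, adjusted p = 0.0867). MCH replicate 1 lay nearest to Control in both. Without the length and GC trend the values were -0.22 for Col12a1 and -0.065 for Col16a1.

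Col20a1 went the other way, at 60.5, 59.5 and 55.2 CPM with MCH and 43.8, 38.3 and 49.7 CPM in Control (0.41 ± 0.10, adjusted p = 0.0504). It passed once the length and GC trend was removed (0.53, adjusted p = 0.0102). Col14a1, another FACIT gene of fibrous tissue, had 7 to 16 counts under MCH and 19 to 29 in Control (-1.18 ± 0.37, adjusted p = 0.0863). Its log2 fold change was the lowest of the 27 but rested on few counts. Col9a3 had 38 to 54 counts per library, its groups overlapped, and it did not pass (0.27 ± 0.20, adjusted p = 0.432).

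Outside the main classes, both tested genes fell. Col18a1 encodes a basement membrane collagen whose C-terminal fragment is endostatin, and it stood at 33.97, 33.2 and 33.2 CPM with MCH and at 50.3, 48.8 and 55.7 CPM in Control (-0.62 ± 0.08, adjusted p = 0.00435). The groups were far apart relative to their spread, and no left-out library ended the call (highest adjusted p = 0.0310). With the length and GC trend removed Col18a1 stood at -0.44 and was still called. Col7a1, which encodes the anchoring fibril collagen beneath epithelia, stood at 15.1, 15.5 and 16.8 CPM with MCH and at 20.0, 22.3 and 23.3 CPM in Control (-0.47 ± 0.10, adjusted p = 0.0284). The Col7a1 call ended without replicate 2 or 3 of either group (highest adjusted p = 0.105) and once the length and GC trend was removed (-0.24, adjusted p = 0.142). Control replicate 2 is the library with the high Krt5 and Krt14 counts. Without it the Col7a1 log2 fold change was -0.46, and Control replicate 3 had the highest Col7a1 level. The part of epithelial cells in the Col7a1 result was not tested.

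The transmembrane genes were near the lower end of what could be tested. Col23a1 had 2.05, 2.65 and 2.32 CPM with MCH and 3.13, 2.25 and 3.83 CPM in Control, from 35 to 66 counts (-0.39 ± 0.24, adjusted p = 0.353). Col17a1, which encodes a hemidesmosome component of epithelia, had 2.41, 2.03 and 1.97 CPM with MCH and 2.95, 2.98 and 1.92 CPM in Control (-0.29 ± 0.24, adjusted p = 0.473). The groups overlapped in both.

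**Figure D2:**
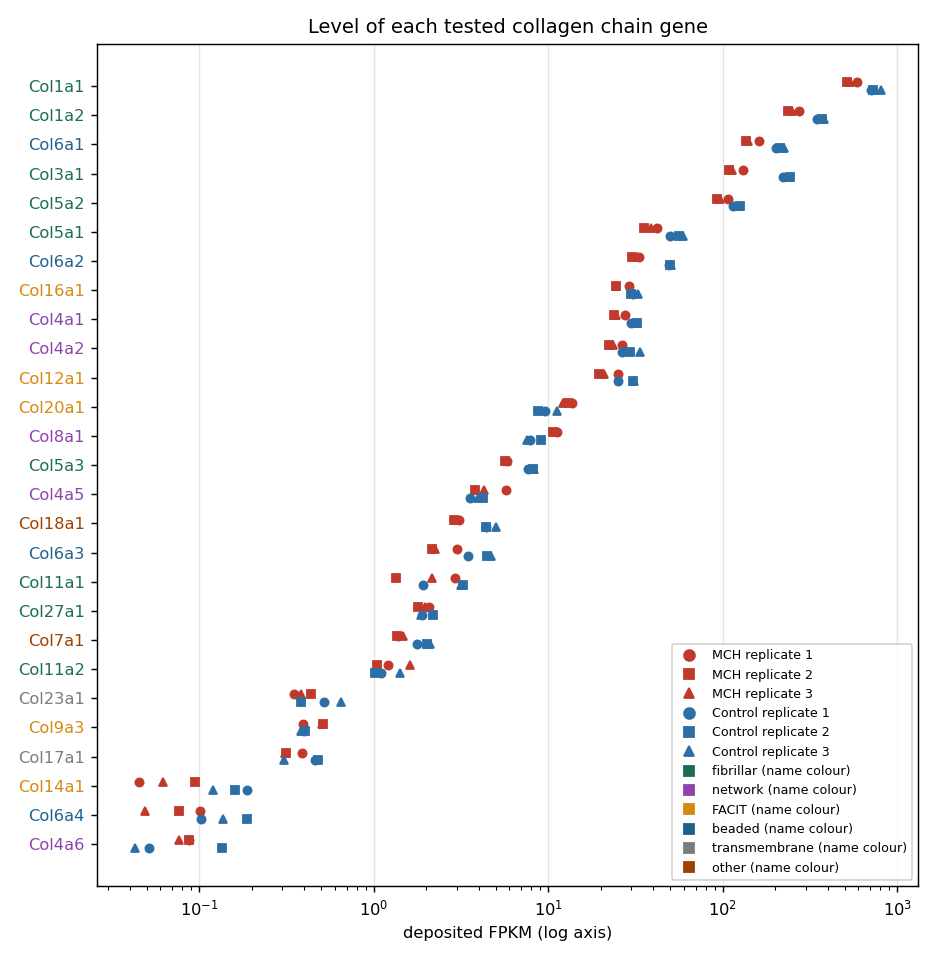
Deposited FPKM (log axis) of the 27 tested collagen chain genes in each library, ordered by mean level, with name colours for the class. Levels ran from 648 FPKM for Col1a1 to 0.0802 FPKM for Col4a6, and Col8a1 and Col20a1 had MCH points right of their Control points.

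Levels of different genes were compared as deposited FPKM, which scales counts by gene length. Col1a1 stood highest, at 548 ± 39.3 FPKM with MCH and 748 ± 53.2 FPKM in Control (SD, n = 3), followed by Col1a2 at 253 ± 18.3 and 366 ± 16.0 FPKM. Col6a1 (146 ± 13.9 and 212 ± 10.8 FPKM) and Col3a1 (117 ± 11.3 and 235 ± 12.04 FPKM) came next. With MCH the Col6a1 level was above that of Col3a1 in each library, and in Control it was below. In the other classes the highest levels were those of Col4a1 and Col4a2 (31.3 ± 1.46 and 29.8 ± 3.57 FPKM in Control, a difference within their spread), Col16a1 (31.0 ± 1.68 FPKM), Col12a1 (28.9 ± 3.30 FPKM), Col18a1 (4.61 ± 0.336 FPKM), Col7a1 (1.96 ± 0.175 FPKM), Col23a1 (0.515 ± 0.132 FPKM) and Col17a1 (0.416 ± 0.0958 FPKM). Of the 12 members with the highest mean FPKM 8 fell, and of the 15 ranked 13 to 27 among all 39 members 4 fell. Rank 27 was Col8a2, which was not tested, while the tested Col4a6 ranked 28. The lower ranks include members with few counts, such as Col14a1 with 7 to 29, and a link between level and calls was not tested.

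The length behind the deposited FPKM sets this order in part. For Col1a2 it was 16209 bases, worked out from the counts and FPKM, while its longest protein-coding transcript in GENCODE M21 has 5348 bases; for Col1a1 the lengths were 6934 and 5930 bases. The ratio of Col1a1 to Col1a2 was 1.96 to 2.17 in the 6 libraries by FPKM and 0.755 to 0.836 per kilobase of the longest protein-coding transcript, a scale chosen after seeing the data. On the latter scale Col1a2 was the most abundant member and Col3a1 ranked above Col6a1 over the 6 libraries. Which chain of type I collagen had more RNA thus turned with the length used, and differences between the groups within 1 gene did not depend on it.

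Ratios between chains that assemble or associate were taken within each library, where scaling between libraries cancels out. Of 8 ratios, 3 had groups that did not overlap. Several ratios share a chain, and how often other gene pairs separate in this way was not counted. The ratio of Col3a1 to Col1a1 was 0.220, 0.211 and 0.210 in MCH replicates 1, 2 and 3 and 0.311, 0.337 and 0.295 in Control replicates 1, 2 and 3. On the log2 scale it differed by -0.55. The ratio of Col5a2 to Col5a1 was 2.56, 2.61 and 2.49 with MCH and 2.29, 2.23 and 2.08 in Control (log2 difference 0.22). The ratio of Col1a1 to Col1a2 was higher by 0.083 on the log2 scale, with 2.16, 2.17 and 2.16 under MCH and 2.04, 1.96 and 2.13 in Control. Each of the 3 had p = 0.1 in a two-sided exact permutation test, the smallest possible, and 0.267 when adjusted over the 8. A ratio does not remove the trend on length and GC content. With that trend removed, the fitted log2 fold changes of Col1a1 and Col1a2 lay closer together, at -0.27 and -0.30 in place of -0.44 and -0.52.

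In the other 5 ratios the groups overlapped. The log2 difference was -0.0042 for Col4a1 to Col4a2, 0.098 for Col6a1 to Col6a2, -0.22 for Col6a3 to Col6a1, -0.065 for Col5a1 to Col1a1 and 0.038 for Col12a1 to Col1a1. Their exact permutation p ran from 0.2 to 1.

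**Figure D3:**
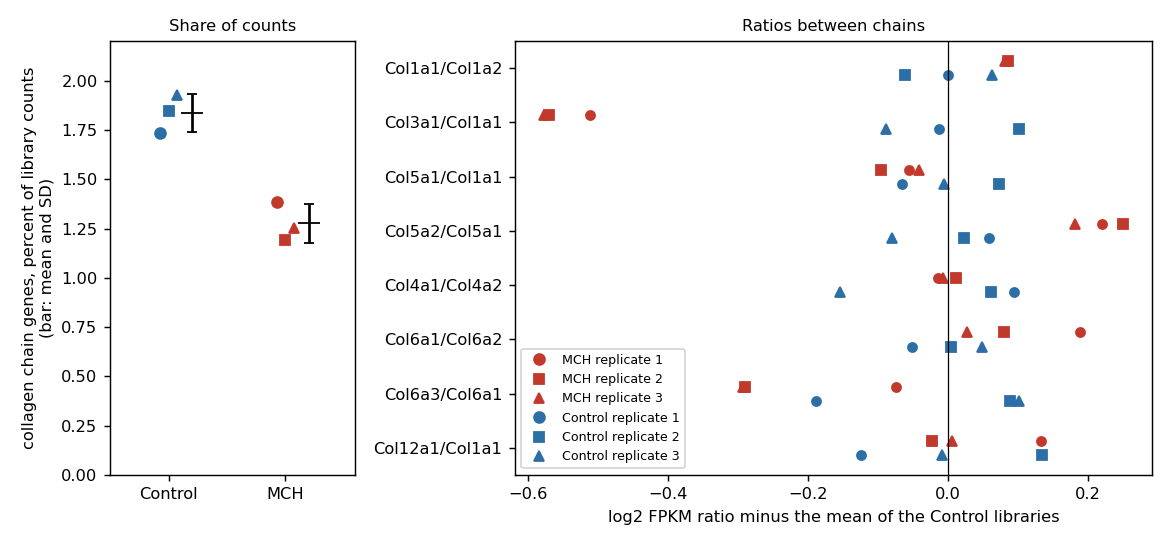
Left, the share of library counts on the 39 collagen chain genes (points, libraries; bars, mean and SD, n = 3). Right, log2 FPKM ratios of 8 chain pairs in each library after subtracting the mean of the Control libraries; the MCH points of Col3a1/Col1a1 lie left of all Control points and those of Col5a2/Col5a1 and Col1a1/Col1a2 lie right of them.

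**Figure D4:**
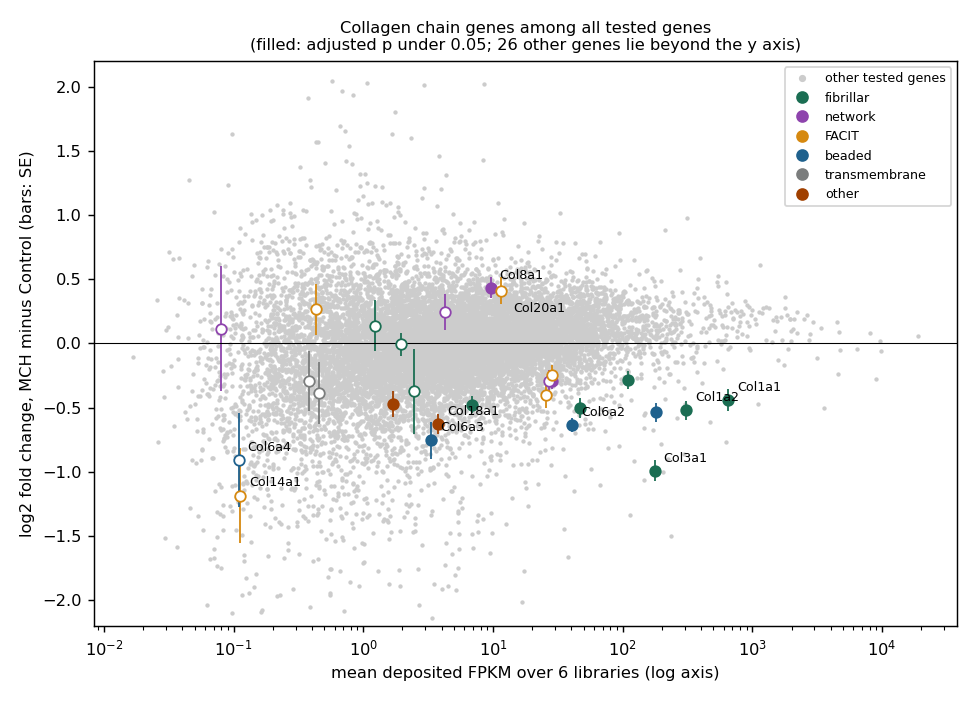
Log2 fold change (MCH minus Control) against mean FPKM on a log axis for all tested genes (grey) and the collagen chain genes (coloured by class, filled where adjusted p was under 0.05, bars SE); 26 genes lie beyond the axis limit of 2.2. Col3a1 lies at -0.99 and a mean of 176 FPKM, below the other abundant collagen genes.

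The promoter table held windows for 31 of the 39 members. Of their 33 windows, 12 (36.4%) held CCAAT on either strand, 5 (15.2%) held TATAAA, 3 (9.09%) held TGTGGT and 1 (3.03%), before Col6a1, held TGANTCA. Over all 32851 windows of the same 250 bases the shares were 33.8%, 12.4%, 14.05% and 6.75%. The members with CCAAT included Col1a2, Col4a1, Col4a2, Col5a3, Col7a1 and Col18a1, and those with TATAAA were Col3a1, Col10a1, Col11a2, Col13a1 and Col17a1. The shares are a description of the letters in these windows and not of binding.

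Other genes of the collagen pathway were read from 5 lists, in which 8 of 43 tested genes fell and 1 rose, beside 5.4% and 3.64% of all genes tested. Among hydroxylation, folding and glycosylation genes 1 of 17 fell and 1 rose, with a list median of 0.11; these counts are near the shares over all genes. P4ha3, a subunit of prolyl 4-hydroxylase, fell by 0.65 ± 0.10 (adjusted p = 0.00954), from 42.8 ± 2.07 to 27.3 ± 2.93 CPM. Crtap, part of the prolyl 3-hydroxylation complex, rose by 0.65 ± 0.08 (adjusted p = 0.00364), from 170 ± 11.5 to 267 ± 19.0 CPM. The major subunit genes P4ha1 (0.16 ± 0.06), P4ha2 (0.19 ± 0.06) and P4hb (0.22 ± 0.07) did not pass, nor did Serpinh1, the collagen chaperone HSP47, whose libraries spread widely (789 ± 268 CPM with MCH and 778 ± 169 CPM in Control).

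Among secretion and propeptide cleavage genes 2 of 9 fell. Bmp1, the enzyme that removes C-terminal propeptides, fell by 0.57 ± 0.05 (adjusted p = 0.00166), from 359 ± 13.6 to 241 ± 1.16 CPM, and Adamts3, an N-terminal propeptide enzyme, fell by 1.79 ± 0.39 on 5 to 25 counts per library. Of 5 crosslinking genes only Loxl3 fell (by 0.64 ± 0.06, adjusted p = 0.00182), while Lox, which encodes lysyl oxidase, had 4992 ± 362 CPM under MCH against 5078 ± 297 CPM in Control. Of 7 tested collagen receptor genes Itga2 fell, on 2 to 21 counts (adjusted p = 0.0464). Of 5 collagen-cleaving proteases 3 fell: Mmp2 went from 25.1 ± 2.40 to 8.29 ± 0.212 CPM (adjusted p = 0.000374), Mmp9 from 11.4 ± 1.51 to 5.59 ± 0.774 CPM (adjusted p = 0.0111) and Mmp13 from 5.55 ± 1.39 to 2.16 ± 0.369 CPM (adjusted p = 0.0164).

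Just inside the limit of 10 counts lay Col4a6, with 12, 13 and 11 counts in the MCH libraries and 7, 21 and 6 in the Control libraries, a mean of 11.7. Just outside lay Col8a2, with 15, 6 and 8 counts with MCH and 6, 9 and 6 in Control, a mean of 8.33. The 12 members below the limit had 0 to 15 counts in any library. Besides Col8a2, Col2a1 and Col24a1 they were Col4a3 (3 to 10 counts), Col4a4 (0 to 2), Col9a2 (0 to 3), Col10a1 (0 to 2), Col13a1 (1 to 9), Col15a1 (1 to 8), Col25a1 (0 to 4), Col26a1 (0 to 2) and Col28a1 (0 to 7). A count of 0 allows up to 3 counts, or 0.160 to 0.182 CPM over unscaled library totals, for counting error only. Col4a4, Col9a2, Col26a1 and Col10a1, the collagen of hypertrophic cartilage, stayed at or below 3 counts in every library.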

How the data were processed

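Libraries were made from the polyadenylated RNA of 6 samples, per the labels. The deposited table gives each gene's read counts, as whole numbers, and its FPKM, per the file headers, and q-values that the authors deposited, per the file headers. The submitters' processing notes name GRCm38 and mm10 as build. No source used here gives the aligner, counting tool, annotation, strand setting or test of the authors. The Control columns were assigned by lacking MCH in their names, and every direction rests on that. Counts divided by FPKM gave the gene length behind each FPKM. All 39 members matched GENCODE M21 by ID, name and locus, 38 with identical ends.

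Deposited counts of all genes went into edgeR 4.0.16 (R 4.3.3) with TMM factors and filterByExpr (minimum count 10, minimum total 15). Group was the sole term of the robust quasi-likelihood model; p-values were two-sided and adjusted (Benjamini-Hochberg) over the 13662 genes kept. Log2 fold changes are MCH minus Control. SEs were obtained from the F statistic and the unshrunken coefficient (its size over the root of F). CPM values are TMM scaled, apart from the limit given for a count of 0. Shares of counts and log2 FPKM ratios were tested by exact permutation over libraries. Alternatives were DESeq2 1.42.0, limma-voom (limma 3.58.1), limma on log2(FPKM + 1), RLE or upper-quartile factors, other low-count filters, no robust option, the replicate number as a block, removal of the trend on exon length and GC content (splines with 4 degrees of freedom, as offsets) and leaving out each library. The steps were tested on simulated counts. Classes and pathway lists are textbook groupings; the members, lists and tests were chosen with earlier results of these data known. Named in full were members past the threshold, the 2 most abundant of each class and those next to the limit of 10 counts; the 5 genes outside the classes count as 1 class here. Further members were named after their values were seen.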

Additional observations from a re-analysis of the deposited data

How the results depend on the processing

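The count of members that fell stayed between 9 and 13 under DESeq2, limma-voom, limma on log2(FPKM + 1), RLE or upper-quartile factors, the other filters, no robust option and removal of the length and GC trend. With 1 library left out it ran from 4 to 14, and the count that rose from 0 to 1. The count that rose was 2 with DESeq2, with no filter on low counts and with the length and GC trend removed; the cause was not tested. The median log2 fold change was -0.22 with that trend removed and -0.46 to -0.34 with 1 library left out. With the replicate number as a block, 2 members fell (Col3a1 and Col6a2), 0 rose, and 179 genes in all were called in place of 1235 (321 to 1589 with 1 library left out). No label says whether the numbers pair the libraries. Same-numbered libraries had correlations of -0.161, -0.039 and -0.014 between their deviations from the group means, and the other pairs -0.078 to 0.110. With 3 libraries a group these values cannot decide whether a shared culture or batch lies behind the numbers. Why calls were lost under the block was not tested.

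Over the 27 tested members and all alternatives, 398 of 457 results kept direction and call, 45 lost a call, 8 gained one and 6 changed direction. Those 6 were in members near 0: Col27a1 with the length and GC trend removed (0.24) and in fits with 1 library left out (-0.049 to 0.057), Col11a2 (-0.060 to 0.29) and Col4a6 (-0.17 to 0.82). The 457 include the members not called, while only the 13 called members could lose a call. Of 17 alternatives, Col3a1 and Col6a2 kept their call in all 17, and Col4a1 and Col5a2 in 9. The log2 ratio differences of Col4a1 to Col4a2 (-0.081 to 0.043) and Col12a1 to Col1a1 (-0.024 to 0.11) changed sign with 1 library left out. The other 6 ratios kept their direction there and with 1 added to FPKM. Ratios of counts give the same differences by arithmetic, since the length behind each FPKM is the same in every library, and are no further check. The share of counts ran from -0.61 to -0.51 points with 1 library left out. With 3 libraries a group, exact tests could not pass 0.05. Members under 10 counts gave no fold change.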

Other observations

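In the table, 5 pairs of collagen genes lie within 200000 bases of each other, and their fold changes were read side by side as a description. Col3a1 and Col5a2 lie tail to tail on chromosome 1 with 24614 bases between their ends; their log2 fold changes were -0.99 and -0.29. Col6a1 and Col6a2 lie on the same strand of chromosome 10, 85161 bases apart, with -0.54 and -0.63. Col4a1 and Col4a2 overlap at their starts, with -0.29 and -0.30. Col4a5 and Col4a6 lie head to head on the X chromosome, 1308 bases apart; Col4a5 had 477 to 780 counts per library and Col4a6 had 6 to 21. Col4a3 and Col4a4, 71 bases apart at their starts, had 3 to 10 and 0 to 2 counts.

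In 10 of the 12 members that fell, MCH replicate 1 had the highest CPM of the MCH libraries, the library that also lay nearest to Control on the first principal component. Of the 13 called members, 0 lost the call without MCH replicate 1 and 9 lost it without MCH replicate 3. The calls over all genes moved the same way, from 1235 to 1589 without MCH replicate 1 and to 321 without MCH replicate 3. How often MCH replicate 1 was the highest MCH library among all genes that fell was not counted. These counts are thus not shown to be particular to collagen genes.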
